A study of Mus musculus with 4 samples.

Results

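The 9 genes described here encode transcription factors and cofactors that set the fast or slow character of skeletal muscle fibres: Six4, Eya1, Eya4, Sox6, Tbx15, Maf, Prox1, Tead1 and Vgll2. They were chosen by name for this role, by a rule that uses no measured value but with earlier results of these data known, from 32868 gene names in the deposited tables, and each had a single row. RNA of tibialis anterior, a mostly fast shin muscle, was sequenced from C57BL/6 mice at postnatal day 21. The Nf1-KO group (Nf1flox/flox with Myf5+) had 2 libraries and the Het group (Nf1flox/+ with Myf5+) had 2 libraries, so both groups carried at least 1 floxed Nf1 allele and the Myf5+ allele, and no group without these was measured. The labels do not expand Myf5+; it is read here as Cre recombinase expressed from the Myf5 locus, which is active in muscle precursors and not in most other cells of the muscle. Nf1 encodes neurofibromin, a protein that turns Ras signalling off, and the comparison addresses how its loss in muscle affects postnatal growth and metabolism.

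Muscle fibres range from fast, glycolytic fibres with the myosin heavy chain Myh4 to slow, oxidative fibres with Myh7. Six4 binds DNA and recruits Eya cofactors to switch on fast fibre genes, Tbx15 and the large Maf factors are linked to the fast glycolytic programme, and Sox6 represses slow fibre genes in fast fibres. On the slow side, Prox1 and Tead1 are linked to slow fibre genes, and Vgll2 is a cofactor of Tead proteins that is enriched in skeletal muscle.

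Values are RPKM, reads divided by gene length and by library depth, and fold changes are log2 differences of Nf1-KO against Het on log2(RPKM + 1) after scaling between libraries. A gene is called changed when the adjusted p of limma, a linear model whose variance is shared across genes, is under 0.05. Of 10690 names tested, 50.3% were called, 24.9% higher and 25.4% lower, so a call by itself was common in these data. The labels do not say whether the 2 libraries of a group came from separate animals, so the tests measure the spread between these libraries. Depth is not given per library, and the authors' deposited table puts the mean normalized read count of the 9 genes between 50.4 for Prox1 and 17735 for Tead1. The targeted gene Nf1 held 1.09 and 1.01 RPKM in Het against 0.89 and 0.85 RPKM in Nf1-KO, with a log2 fold change of -0.18 and a limma adjusted p of 0.041. With a pseudocount of 0.1 the log2 fold change was -0.33 (limma adjusted p 0.045), and the authors' deposited table gave -0.38 (DESeq2 adjusted p 0.0026). The call at a pseudocount of 1 was lost when any 1 of the 4 libraries was left out, with adjusted p up to 0.18. Markers of skeletal muscle were abundant in all 4 libraries (Ckm between 5563 and 5938 RPKM), as the label of the tissue says.

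In short, 5 of the 9 factors fell (Sox6, Eya4, Maf, Tead1 and Tbx15), 2 rose (Vgll2 and Six4), Eya1 did not pass the test, and Prox1 was too low to be tested. Of the 8 tested, 7 were called, beside 50.3% of all names tested and 61.6% of the 5452 names with a mean of at least 4 RPKM, close to the level of the lowest tested factor. The 5 that fell stand beside 25.4% of all names tested called lower and 32.1% of the names with at least 4 RPKM. The 2 that rose stand beside 24.9% and 29.6% called higher. By the scaled values the groups did not overlap in 8 of the 8, beside 76.3% of all names tested. The changes were modest: the log2 fold changes ran from -0.48 to 0.58 with a median of -0.18, beside a median of 0.0005 over all names tested (-0.08 and 0.07 with values as deposited). Only Vgll2 exceeded 0.5 in absolute size, and 7.12% of the names tested had a larger absolute change than Vgll2.

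**Figure D1:**
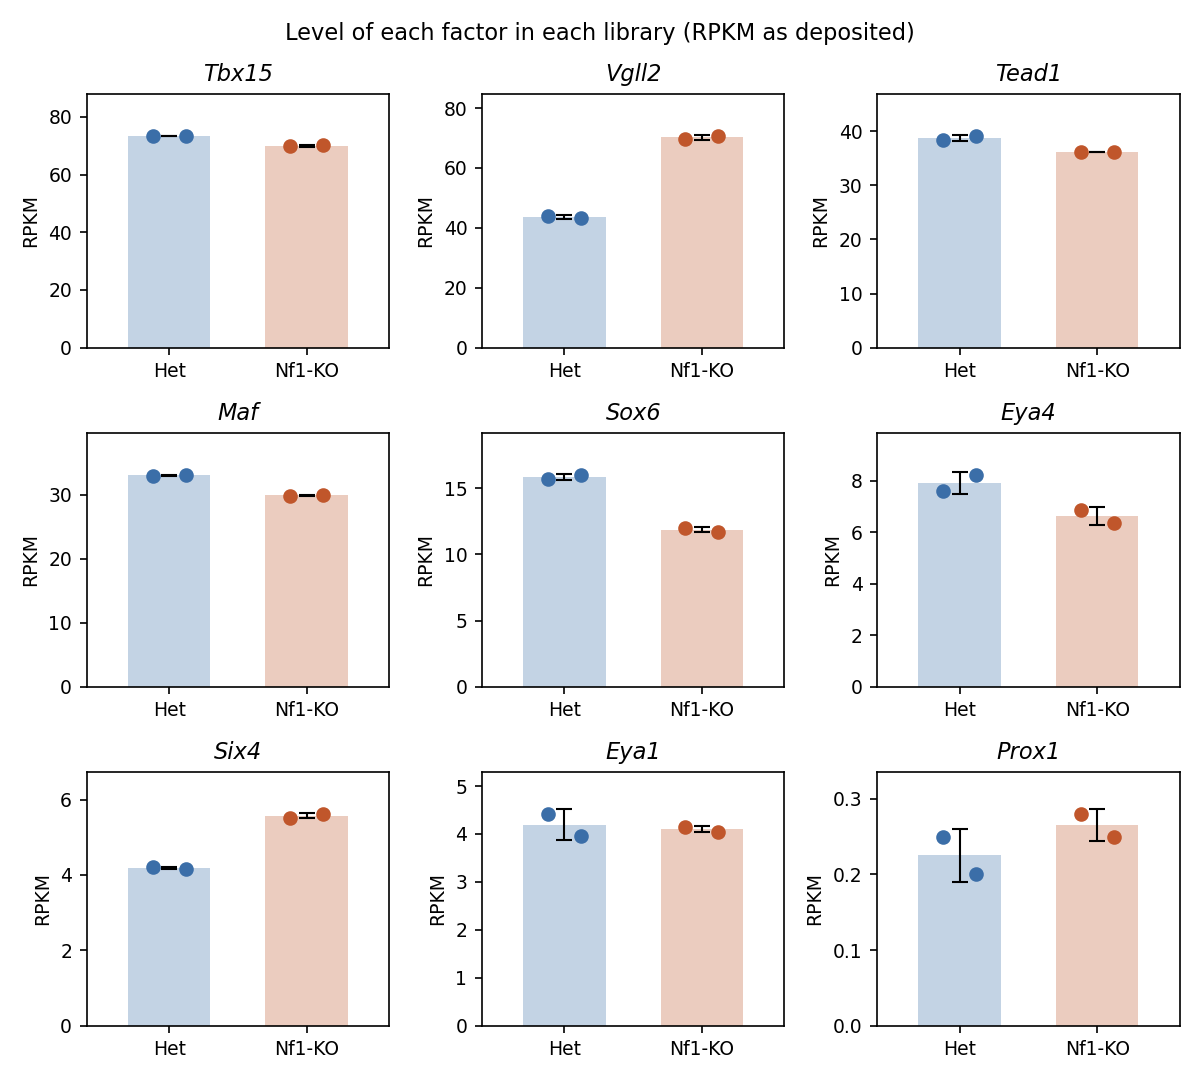
Level of each of the 9 factors as deposited, in RPKM on the vertical axis, for the 2 Het and 2 Nf1-KO libraries. Points are libraries, bars are group means and error bars are SD (n = 2). Vgll2 and Six4 sit higher in Nf1-KO, Sox6 sits lower, and Tbx15, Tead1 and Maf differ by small steps.

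By level, Tbx15 was the most abundant of the 9, with a mean of 71.7 RPKM over the 4 libraries, followed by Vgll2 (56.9), Tead1 (37.4), Maf (31.5) and Sox6 (13.9). Eya4 (7.27), Six4 (4.88) and Eya1 (4.14) came next, and Prox1 was last with 0.245 RPKM. In the Nf1-KO libraries Tbx15 and Vgll2 were level: Tbx15 held 69.8 and 70.3 RPKM and Vgll2 held 69.7 and 70.7 RPKM. Their order is therefore not set there. In Het the levels of Six4 (4.2 and 4.17 RPKM) and Eya1 (4.42 and 3.96 RPKM) overlapped. The gene lengths behind the deposited RPKM are not stated, so the order rests on the authors' lengths.

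Vgll2, the Tead cofactor, showed the largest change of the 9. It was 44 and 43.2 RPKM in Het and 69.7 and 70.7 RPKM in Nf1-KO. Both Nf1-KO libraries were higher than both Het libraries by far more than the replicates differed. This was a 1.5-fold rise (log2 fold change 0.58, standard error 0.024, limma adjusted p 9.1e-06). Six4, a homeobox protein that works with Eya cofactors, was 4.2 and 4.17 RPKM in Het and 5.52 and 5.62 RPKM in Nf1-KO. The groups did not overlap, and the log2 fold change was 0.26 (standard error 0.043, limma adjusted p 0.003).

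Sox6, the repressor of slow fibre genes, fell most. It was 15.69 and 16.02 RPKM in Het and 12.03 and 11.73 RPKM in Nf1-KO. Both Nf1-KO libraries were lower, with a log2 fold change of -0.48 (standard error 0.034, limma adjusted p 9.1e-05). The promoters of these 3 factors, from 250 bases before to 50 bases after an annotated start, are shown because Vgll2 and Six4 are the factors that rose and Sox6 is the factor that fell most; they come from the RefSeq promoter table (GRCm38.p6). Each is written 5′ to 3′ on the strand of its gene, and capitals mark matches to motifs of the fibre factors themselves. Vgll2 is at chr10:52022252-52022551 (plus strand), Six4 at chr12:73113196-73113495 (minus strand, 1 of 2 entries, the only one with a match) and Sox6 at chr7:115824661-115824960 (minus strand, 1 of 6 entries, the one with the most matches).
Vgll2: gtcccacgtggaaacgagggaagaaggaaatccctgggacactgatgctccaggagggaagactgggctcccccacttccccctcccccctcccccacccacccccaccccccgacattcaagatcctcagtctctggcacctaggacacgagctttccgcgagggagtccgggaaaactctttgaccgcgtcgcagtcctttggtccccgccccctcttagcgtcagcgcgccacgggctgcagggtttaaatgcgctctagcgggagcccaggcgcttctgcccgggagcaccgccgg
Six4: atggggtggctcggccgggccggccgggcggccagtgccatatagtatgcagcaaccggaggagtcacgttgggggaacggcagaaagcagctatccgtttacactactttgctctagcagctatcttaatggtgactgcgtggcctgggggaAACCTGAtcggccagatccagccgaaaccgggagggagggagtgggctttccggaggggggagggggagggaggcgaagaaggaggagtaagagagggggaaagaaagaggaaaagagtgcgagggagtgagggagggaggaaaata
Sox6: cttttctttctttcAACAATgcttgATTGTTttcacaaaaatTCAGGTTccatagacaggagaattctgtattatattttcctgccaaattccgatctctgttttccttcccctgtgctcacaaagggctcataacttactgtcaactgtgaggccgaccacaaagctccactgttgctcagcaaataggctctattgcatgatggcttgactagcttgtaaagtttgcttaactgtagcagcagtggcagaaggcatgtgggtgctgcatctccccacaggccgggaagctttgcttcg

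The 5 motifs searched, on both strands, were TCAGGTT for Six4 and its relatives (the MEF3 site), CATTCC for Tead proteins (the MCAT site), TGCTGAC for large Maf factors (the core of their recognition element), AACAAT for Sox proteins and AGGTGTG for T-box proteins. In the windows shown, Six4 held 1 MEF3 match in the reverse orientation, whose first base lay 97 bases before the start. The Sox6 window held 1 MEF3 match at 208 bases and Sox matches at 236 and 225 bases before the start, the second of them reversed. The Vgll2 window held none of the 5 motifs. Across the table, 4.07% of 32851 promoters held the MEF3 motif and 10.7% held the Sox motif. Of the 9 factors, 5 had an entry, with 13 promoters in all (Sox6, Six4, Eya4, Prox1 and Vgll2), of which 2 held MEF3, 2 the Tead motif and 1 the Sox motif. No match overlapped another. A match is a description of the letters in this window and not a binding site.

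Eya4 and Eya1 encode transactivating phosphatases that Six4 recruits. Eya4 was 7.6 and 8.23 RPKM in Het and 6.87 and 6.37 RPKM in Nf1-KO. Both Nf1-KO libraries were lower, and the log2 fold change was -0.31 (standard error 0.055, limma adjusted p 0.0046). Eya1 was 4.42 and 3.96 RPKM in Het and 4.14 and 4.05 RPKM in Nf1-KO. As deposited, both Nf1-KO values of Eya1 lay between the Het values, and by the scaled values they lay just below them. Its log2 fold change was -0.10 (95% interval from -0.24 to 0.04) with a limma adjusted p of 0.19, so a fall like that of Tbx15 or Tead1 lies inside the interval. It was -0.17 without Het replicate 2 and -0.04 without Het replicate 1.

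Maf, a large Maf factor, was 33.0 and 33.1 RPKM in Het and 29.9 and 29.9 RPKM in Nf1-KO. Tead1, the DNA-binding partner of Vgll2 and of the Hippo pathway coactivators Yap1 and Wwtr1, was 38.4 and 39.2 RPKM in Het and 36.2 and 36.1 RPKM in Nf1-KO. Tbx15, a T-box factor of glycolytic fibres, was 73.4 and 73.3 RPKM in Het and 69.8 and 70.3 RPKM in Nf1-KO. In each of these 3 genes both Nf1-KO libraries were below both Het libraries, also as deposited. The log2 fold changes were -0.23 for Maf (standard error 0.025, limma adjusted p 5.4e-04), -0.19 for Tead1 (0.025, limma adjusted p 0.0013) and -0.16 for Tbx15 (0.021, limma adjusted p 0.0013). Their size depended on the scaling between libraries, which moved the median log2 fold change of all names from 0.07 to 0.0005. With values as deposited the log2 fold changes were -0.14 for Maf, -0.10 for Tead1 and -0.07 for Tbx15, all still called (limma adjusted p 0.0045, 0.017 and 0.038). An exon of Maf overlaps one of Gm15655 on the opposite strand, and the strand setting of the counting is not given in the sources used here.

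Prox1, a homeobox factor of slow fibres and of lymphatic endothelium, was 0.25 and 0.20 RPKM in Het and 0.28 and 0.25 RPKM in Nf1-KO, so the groups touched. It was below the filter of 0.5 RPKM in at least 2 libraries and was not tested. When all names were tested, its log2 fold change was 0.03 with a limma adjusted p of 0.64. The authors' deposited table gave it a log2 fold change of 0.14 (standard error 0.40). An exon of Prox1 overlaps its antisense gene Prox1os. Of 6 lymphatic endothelium markers, 2 of the 3 tested (Lyve1 and Pdpn) were called higher in Nf1-KO, beside 24.9% of all names tested. Flt4, the most abundant of the 6, did not pass (log2 fold change 0.003). It was 1.70 and 1.69 RPKM in Het and 1.80 and 1.83 RPKM in Nf1-KO. The summed level of the 6 markers was 3.10 to 3.21 RPKM in Het and 4.53 to 4.91 RPKM in Nf1-KO, and Ccl21a was listed at 0. The part of lymphatic cells in the Prox1 value was not tested.

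The authors' deposited table called 7 of the 9 factors at an adjusted p under 0.05, 2 higher and 5 lower, beside 31.6% of its 13985 genes. In the authors' deposited table the log2 fold change was 0.58 for Vgll2, -0.52 for Sox6, -0.37 for Eya4, 0.31 for Six4, -0.25 for Maf, -0.21 for Tead1 and -0.17 for Tbx15. That table was made from the same 4 libraries and is no independent support. Across the pseudocount, filters, scalings, variance model, replicate block and each library left out, the 8 tested factors kept their sign and the 7 called factors kept their call.

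**Figure D2:**
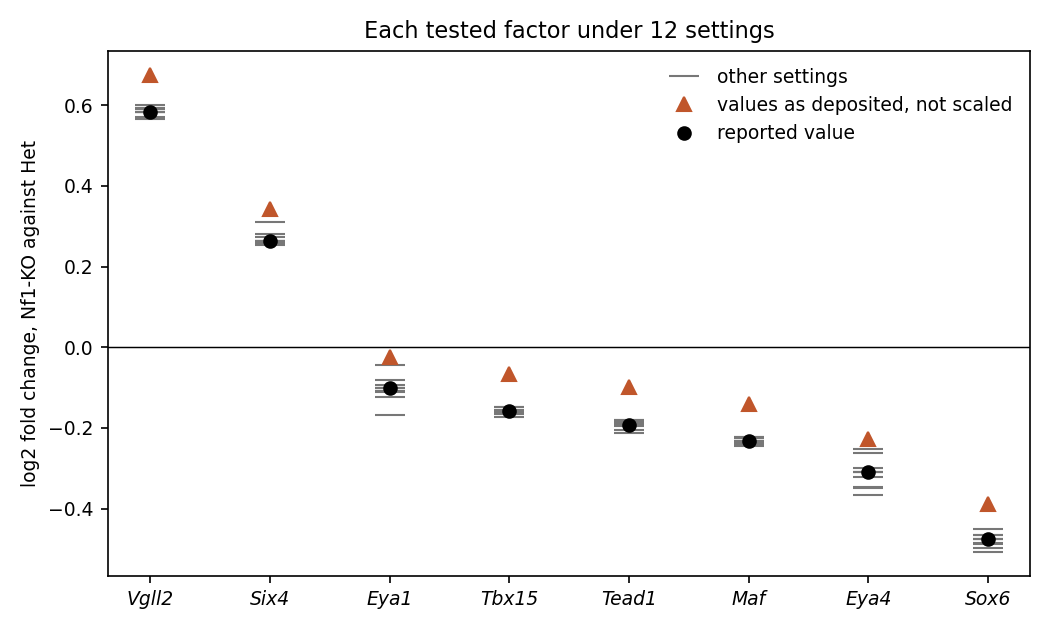
Log2 fold change of the 8 tested factors (vertical axis) under 12 settings. Black circles are the reported values, orange triangles the values as deposited without scaling, and grey dashes the other settings. Each factor keeps its sign throughout. The triangles of Eya1, Tbx15, Tead1, Maf, Eya4 and Sox6 lie nearer to 0 than their circles, and those of Vgll2 and Six4 lie farther from 0.

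Ratios between factors within a library do not depend on the scaling between libraries. Vgll2 over Tead1 was 1.15 and 1.10 in Het and 1.93 and 1.96 in Nf1-KO. In RPKM, Vgll2 was about level with its DNA-binding partner in the first group and well above it in the second. The level of 1 gene against another rests on the authors' unstated gene lengths, while the change of a ratio between groups does not. Vgll2 over Sox6 was 2.80 and 2.69 in Het and 5.79 and 6.03 in Nf1-KO. Six4 over Eya4 was 0.553 and 0.507 in Het and 0.804 and 0.882 in Nf1-KO. The 2 groups did not overlap in these 3 ratios. Nor did they overlap in Tbx15 over Tead1, which moved little, from 1.91 and 1.87 to 1.93 and 1.95. For single genes, the scaled values of the groups did not overlap in 76.3% of all names tested, so being apart was common. No test was run on the ratios, and the smallest two-sided p that an exact permutation of 4 libraries can give is 0.333.

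**Figure D3:**
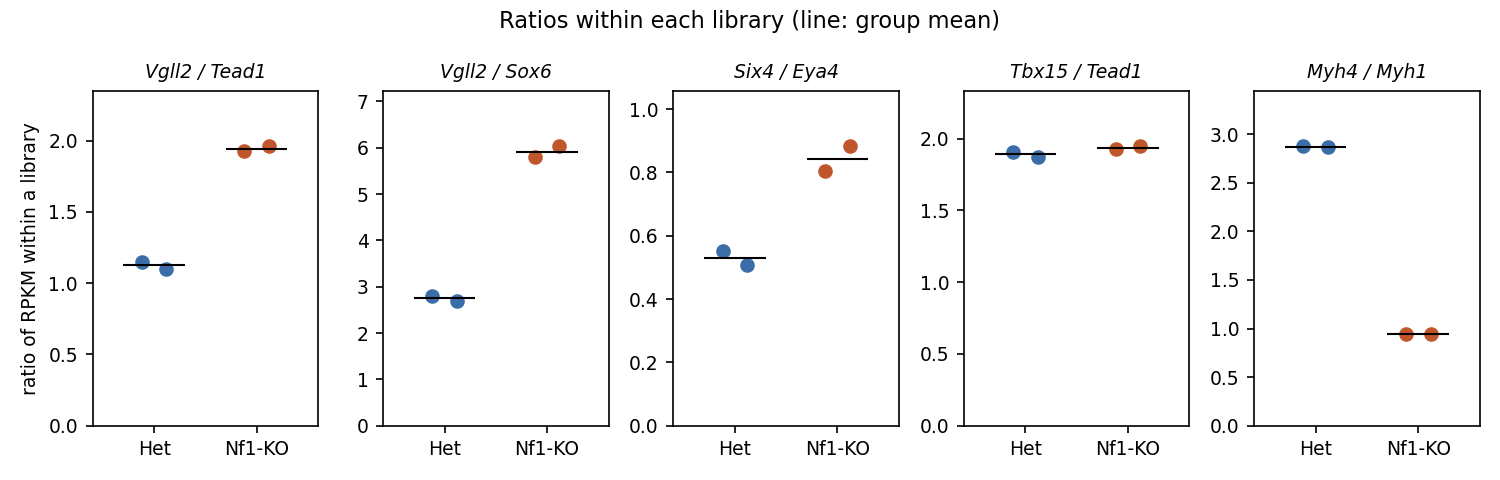
Ratios of RPKM within each library, on vertical axes that start at 0, for Het and Nf1-KO. Points are libraries and lines are group means (n = 2). Vgll2 over Tead1, Vgll2 over Sox6 and Six4 over Eya4 are higher in Nf1-KO, Tbx15 over Tead1 is nearly level, and Myh4 over Myh1 falls from 2.87 to 0.943.

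Relatives and cofactors of the 9 factors were compared as a list of 18 genes, of which 15 passed the filter. Of these, 3 rose and 2 fell (33.3% called, beside 50.3% of all names tested), with a median log2 fold change of 0.07. The count that rose depended on the settings: it was 5 with values as deposited and 1 when at least 1 RPKM was asked of each library, where the median turned to -0.02. Mafa, a large Maf factor like Maf, fell with it. It went from 14.5 and 16.4 to 12.3 and 13.0 RPKM, a log2 fold change of -0.35 (limma adjusted p 0.0039).

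Maf is also known from macrophages. Of 8 macrophage markers, 4 of the 6 tested were called higher in Nf1-KO, beside 24.9% of all names tested, and none were lower. Their summed level was 12.5 to 12.6 RPKM in Het and 32.4 to 32.6 RPKM in Nf1-KO, with Adgre1 listed at 0. Lyz2, a lysozyme of myeloid cells, made up most of that sum, with 7.47 and 7.38 RPKM in Het and 24.35 and 24.62 RPKM in Nf1-KO, while Mrc1 and Cd163 did not pass (log2 fold changes 0.007 and -0.002). The part of macrophages in the values of Maf and Mafa was not tested. In bulk tissue, fewer cells of a type and less RNA per cell cannot be told apart.

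Among the relatives of Six4 and the Eya genes, Six2, Six5 and Eya3 did not pass, with log2 fold changes of 0.13, 0.07 and 0.05. Six2 passed with values as deposited (log2 fold change 0.19, limma adjusted p 0.026) and without a variance trend (0.13, 0.037). Eya2, below the filter, was 0.26 and 0.22 RPKM in Het and 0.60 and 0.48 RPKM in Nf1-KO, and the authors' deposited table called it higher (log2 fold change 1.07, DESeq2 adjusted p 0.032). Eya4 was the most abundant Eya gene, with 48.9% and 53.1% of the summed Eya RPKM in Het and 45.3% and 44.0% in Nf1-KO.

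Dach2, a corepressor that acts with Eya proteins, had the largest change of the list. It was 0.83 and 0.82 RPKM in Het and 2.75 and 2.82 RPKM in Nf1-KO, a log2 fold change of 1.00 (standard error 0.053, limma adjusted p 2.7e-05). The pseudocount of 1 lowers this value: with 0.1 it was 1.55 (limma adjusted p 3.2e-05), and the authors' deposited table gave 1.65. Dach1 was 0.85 and 0.86 RPKM in Het and 0.83 and 0.72 RPKM in Nf1-KO and did not pass (log2 fold change -0.11, limma adjusted p 0.19). Sox13, a relative of Sox6 in the SoxD group, moved opposite to Sox6. It rose from 2.23 and 2.22 to 3.19 and 3.17 RPKM, a log2 fold change of 0.31 (limma adjusted p 0.0028). Sox5, the third SoxD gene, was at most 0.05 RPKM, Tbx18 at most 0.23 RPKM, and neither was tested. Prox2 was 0.35 RPKM in both Het libraries and 0.52 and 0.53 RPKM in Nf1-KO, with a log2 fold change of 0.15 that missed the threshold (limma adjusted p 0.068). The pseudocount of 1 lowers this value too: with 0.1 it was 0.40 (limma adjusted p 0.076). The authors' deposited table gave Prox2 0.50 (DESeq2 adjusted p 0.36). Prox2 passed with values as deposited (limma adjusted p 0.037), with no filter (0.042) and without a variance trend (0.023), and its exons overlap those of the antisense gene Prox2os.

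Among the Tead proteins and their cofactors, Tead1 held 90.2% to 92.4% of the summed Tead RPKM. Tead2, Tead3 and Tead4 did not pass (log2 fold changes 0.09, 0.13 and -0.03), and the value of Tead3 depended on the Het libraries: it was -0.01 without Het replicate 1, and 0.27 and called without Het replicate 2 (limma adjusted p 0.028). Vgll2 likewise held 93.4% to 96.1% of the summed RPKM of Vgll2, Vgll3 and Vgll4. Vgll3 rose with Vgll2, from 0.75 and 0.72 to 1.24 and 1.36 RPKM, a log2 fold change of 0.36 (limma adjusted p 0.003), or 0.66 with a pseudocount of 0.1 (limma adjusted p 0.0035). Vgll4 was 1.98 and 2.31 RPKM in Het and 2.27 and 1.49 RPKM in Nf1-KO. Its log2 fold change was -0.20 (limma adjusted p 0.24), and without Nf1-KO replicate 1 it was -0.39 with a limma adjusted p of 0.0082. Wwtr1, which encodes the coactivator Taz, fell from 8.41 and 8.37 to 6.82 and 7.02 RPKM, a log2 fold change of -0.33 (limma adjusted p 7.3e-04). Yap1 did not pass (log2 fold change -0.05, 95% interval from -0.16 to 0.05), and its sign turned with values as deposited (0.03).

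**Figure D4:**
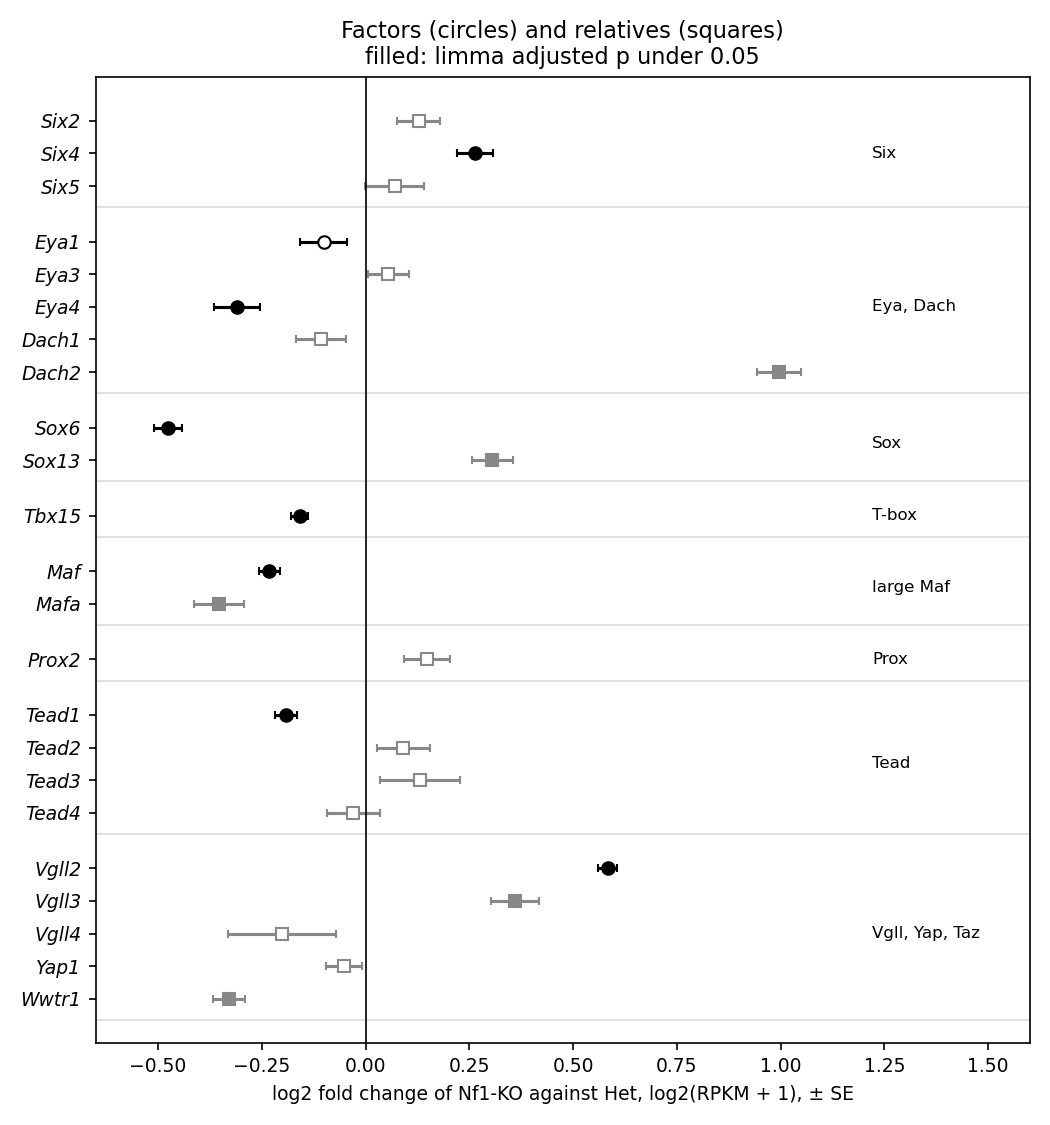
Log2 fold changes of Nf1-KO against Het on log2(RPKM + 1), with standard errors, for the 8 tested factors (circles) and 15 tested relatives and cofactors (squares), by family. Filled symbols have a limma adjusted p under 0.05. Maf and Mafa lie below 0, Vgll2 and Vgll3 lie above 0, and Sox6 and Sox13 lie on opposite sides.

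Genes that respond to Tead proteins with Yap1 or Wwtr1 were taken as a list of 7, of which 6 were tested. Of these, 5 rose and 0 fell, with a median log2 fold change of 0.44, beside 24.9% of all names tested called higher. Amotl2, an angiomotin family protein, went from 2.65 and 2.75 to 6.75 and 6.76 RPKM, a log2 fold change of 0.99. Ankrd1, a stress-responsive ankyrin repeat protein, went from 2.22 and 1.89 to 5.07 and 5.45 RPKM, a log2 fold change of 0.96. The secreted matrix proteins Ctgf and Cyr61 had log2 fold changes of 0.54 and 0.34, and the limma adjusted p of the 4 genes ran from 1.4e-05 to 0.003. Axl, a receptor tyrosine kinase, was the fifth gene that rose (log2 fold change 0.34), Lats2, a Hippo pathway kinase, did not pass (0.08, limma adjusted p 0.21), and Ajuba was below the filter. The list also answers to other signals, and fibro-adipogenic markers moved with it: 4 of 6 were higher and 1 lower, with a summed level of 153 to 157 RPKM in Het and 183 to 184 RPKM in Nf1-KO. Schwann cell markers rose in 6 of 6, from a summed 10.8 RPKM in each Het library to 24.4 and 26.3 RPKM in Nf1-KO. Mural cell markers, of pericytes and vascular smooth muscle, were higher in 3 of 6 and lower in none, with a summed level of 79.0 to 80.4 RPKM in Het and 104 to 105 RPKM in Nf1-KO. Blood endothelium markers were higher in 3 of 6 and lower in 1, with a median log2 fold change of 0.04. Their summed level was 75.9 to 76.1 RPKM in Het and 82.0 to 83.4 RPKM in Nf1-KO. The part of these cell types in these values was not tested. Their marker counts stand beside 24.9% of all names tested called higher and 25.4% called lower.

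Fibre genes of the kind that these factors are known to act on were compared as 2 lists. Of 16 fast fibre genes, 14 fell and 2 rose, with a median log2 fold change of -0.63, beside 25.4% of all names tested called lower. The largest were Pvalb (a calcium buffer of fast fibres), Actn3 (the fast Z-disc actinin), Mybpc2 (the fast myosin-binding protein) and Casq1 (calsequestrin of fast fibres), which fell by 1.72, 1.35, 1.21 and 1.15 on the log2 scale. Of 11 slow fibre genes, 10 rose and 0 fell, with a median of 0.41, beside 24.9% called higher. The largest were Casq2, Myoz2, Tnnt1 and Tpm3, the slow calsequestrin, a slow Z-disc protein, slow troponin T and slow tropomyosin, with log2 fold changes of 1.86, 1.48, 0.78 and 0.49. Myh7 was the slow gene that did not pass (log2 fold change -0.16, limma adjusted p 0.066). It fell past the threshold when at least 1 RPKM was asked of each library (limma adjusted p 0.049) and without a variance trend (0.044). The slow list summed to 157 and 156 RPKM in Het and 260 and 263 RPKM in Nf1-KO. That sum rests on few genes. Myl3 held most of it in Het, with 89.7 and 89.2 RPKM, against 106 and 109 RPKM in Nf1-KO. Casq2 went from 11.4 and 11.7 to 48.4 and 46.9 RPKM, and Myoz2 from 15.3 and 14.9 to 46.4 and 47.3 RPKM. The fast list summed to 76410 and 76660 RPKM in Het and 58120 and 57910 RPKM in Nf1-KO. Fast fibre transcripts thus stayed far more abundant than slow ones in both groups.

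**Figure D5:**
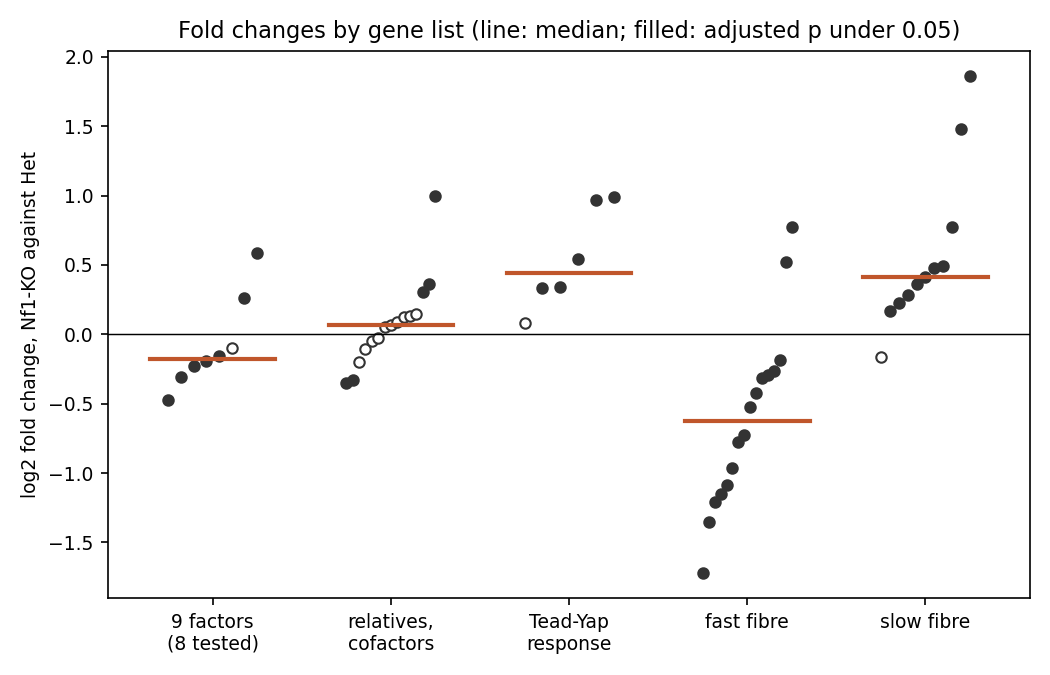
Log2 fold changes of Nf1-KO against Het (vertical axis) for the tested genes of 5 lists, ordered within each list. Each point is a gene, filled where the limma adjusted p is under 0.05, and lines are medians. The 8 tested factors span -0.48 to 0.58, while fast fibre genes have a median of -0.63 and slow fibre genes of 0.41.

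Among the myosin heavy chains, Myh4 fell against both Myh1 and Myh2. Myh4 over Myh1 was 2.88 and 2.87 in Het and 0.945 and 0.941 in Nf1-KO. Myh2 over Myh4 was 0.0662 and 0.0672 in Het and 0.243 and 0.242 in Nf1-KO, 3.63 times as high. Myh4 had 70.7% and 70.6% of the summed RPKM of Myh1, Myh2, Myh4 and Myh7 in Het and 43.5% and 43.4% in Nf1-KO, and Myh1 had 24.6% in each Het library and 46.0% and 46.1% in Nf1-KO. Myh7 stayed at 0.0160% to 0.0182%. The log2 fold changes were -1.08 for Myh4, 0.52 for Myh1 and 0.78 for Myh2, with limma adjusted p of 8.3e-07, 1.1e-05 and 6.1e-06. These genes share similar sequence, and how the counting split shared reads is not given in the sources used here. Exons of Myh1, Myh2, Myh7, Mybpc2, Casq1, Ctgf, Tead2 and Yap1 also overlap those of genes on the opposite strand. An exon of Lats2 overlaps one of Gm49361 on the same strand. Myh2 had 2 rows of its name, and the one with the higher mean was used.

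The promoters of 3 myosin heavy chains are shown because Myh4 fell, its neighbour Myh1 rose and the slow Myh7 did not pass, and because they differ in the motifs. They are at chr11:67237562-67237861 for Myh4 (plus strand), chr11:67199852-67200151 for Myh1 (plus strand) and chr14:54994577-54994876 for Myh7 (minus strand, 1 of 2 entries, the one with more matches), in RefSeq's GRCm38.p6, 5′ to 3′ with motif matches in capitals.
Myh4: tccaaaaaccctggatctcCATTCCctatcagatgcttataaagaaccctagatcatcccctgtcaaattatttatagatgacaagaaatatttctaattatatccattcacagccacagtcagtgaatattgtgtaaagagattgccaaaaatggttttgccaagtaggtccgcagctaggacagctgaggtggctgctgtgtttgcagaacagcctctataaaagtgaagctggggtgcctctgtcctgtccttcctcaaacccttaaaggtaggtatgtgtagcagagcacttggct
Myh1: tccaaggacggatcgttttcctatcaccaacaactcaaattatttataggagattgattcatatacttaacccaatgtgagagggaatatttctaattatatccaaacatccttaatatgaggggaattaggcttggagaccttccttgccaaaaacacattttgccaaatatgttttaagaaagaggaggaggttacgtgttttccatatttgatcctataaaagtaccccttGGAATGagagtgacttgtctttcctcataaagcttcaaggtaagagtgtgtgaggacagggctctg
Myh7: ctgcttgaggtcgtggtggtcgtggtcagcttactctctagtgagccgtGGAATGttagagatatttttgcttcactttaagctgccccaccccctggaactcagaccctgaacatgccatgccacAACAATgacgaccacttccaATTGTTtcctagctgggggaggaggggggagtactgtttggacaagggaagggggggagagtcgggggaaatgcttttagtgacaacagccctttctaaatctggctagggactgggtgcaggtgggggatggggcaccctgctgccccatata

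Myh4 held 1 Tead match 231 bases before the start, and Myh1 held 1 reversed Tead match 16 bases before it. Myh7 held 1 reversed Tead match at 201 bases and Sox matches at 124 and 104 bases before the start, the second reversed. Of 19 promoters of 13 fast genes, 6 held the Tead motif, 1 the Sox motif, 1 the large Maf core, 1 the T-box motif and 0 the MEF3 motif. Of 14 promoters of 10 slow genes, 3 held the Tead motif, 4 the Sox motif, 1 the large Maf core, 2 the T-box motif and 0 the MEF3 motif. Of all 32851 promoters, 14.7% held the Tead motif, 4.67% the large Maf core and 5.84% the T-box motif. Promoters of 1 gene can overlap, so these counts are not independent.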

How the data were processed

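Total RNA was isolated on columns from tibialis anterior frozen in liquid nitrogen, and libraries were made with a TruSeq kit, per the labels' protocols. The submitters' processing notes name STAR 2.4.2a, DESeq2 and the mouse build mm9; the annotation and counting program are not given in the sources used here. The authors deposited 1 value per gene and library for 34682 rows, with no unit in the headers. The deposited values were read as RPKM, since the normalized count per RPKM rose with transcript length with a log-log slope of 0.955 over 8298 genes. The authors' deposited comparison table holds, per the file headers, a mean signal of normalized counts, a log2 fold change and its standard error, a test score, and p-values before and after adjustment.

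Rows named by a number (33) were left out, and of rows marked as copies the one with the highest mean was kept. Values were scaled by a trimmed mean of log ratios to the mean library, leaving out the outer 30% by ratio and 5% by level on each side (factors 0.969, 0.967, 1.03 and 1.03), and log2(RPKM + 1) was tested with limma 3.58.1 in R 4.3.3 with a variance trend, in names of at least 0.5 RPKM in at least 2 libraries, two-sided, with Benjamini-Hochberg adjustment. The pseudocount understates changes of low genes. The script was tested on simulated data. Depth per library is unknown, so no counting intervals are given. The factors and gene lists were chosen with earlier results of these data known. Genes named are the 9 factors, their tested relatives (some are not reported here), the 4 largest changes of the fast, slow and Tead lists, 4 myosin heavy chains and the closest patterns to the most raised and most lowered factor. Gene positions are not given because the reference (GENCODE M21, GRCm38) is not mm9; it served for exon overlaps, and promoters carry their own build. Alternatives were another pseudocount, filters, scalings, variance model, threshold, a replicate block and leaving out each library.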

Additional observations from a re-analysis of the deposited data

How the results depend on the processing

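All 7 calls among the factors held, 2 higher and 5 lower, under each alternative: a pseudocount of 0.1, no filter, 1 RPKM in every library, values as deposited, median-ratio scaling, no variance trend, the replicate block, an adjusted p under 0.01 and each library left out. Leaving out 1 library, the log2 fold change ran from 0.57 to 0.60 for Vgll2, -0.50 to -0.45 for Sox6, -0.37 to -0.25 for Eya4 and -0.17 to -0.04 for Eya1, which was called in none. All names called numbered 5373, and 3636 to 5643 over the alternatives. The labels do not say what the replicate numbers share, and the deviations of libraries of the same number correlated at -0.018 over the tested names. Adding the replicate block, 5234 names were called and the log2 fold changes of Vgll2 and Sox6 stayed at 0.58 and -0.48 (limma adjusted p 6.8e-05 and 4.0e-04); the block ended the call of Nf1 (-0.18, 0.056) and changed no call among the factors.

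The relatives called higher went from 3 to 5 with no filter, 5 with values as deposited, 5 without a variance trend and 1 with 1 RPKM in every library (3 to 4 with a library left out), and those called lower from 2 to 3 without Nf1-KO replicate 1. Their median of 0.07 became 0.169 with a pseudocount of 0.1, 0.0549 with no filter, 0.122 with values as deposited and, reversed, -0.0235 with 1 RPKM in every library, where fewer genes were tested (0.0128 to 0.0573 with a library left out). The fast fibre median of -0.63 became -0.639 with no filter, -0.615 with 1 RPKM in every library and -0.531 with values as deposited (-0.641 to -0.610 with a library left out). The slow fibre median of 0.41 became 0.531 with a pseudocount of 0.1, 0.401 with no filter, 0.393 with 1 RPKM in every library and 0.481 with values as deposited (0.370 to 0.445 with a library left out), and the slow genes called lower went from 0 to 1 with 1 RPKM in every library and without a variance trend. Values that turned sign were Tead4 (0.0272 as deposited, -0.088 to 0.0386 with a library left out), Yap1 (0.0306 as deposited) and Tead3 (-0.0121 to 0.269 with a library left out, the lowest without Het replicate 1). Nf1 also lost its call with no filter (-0.18, 0.074), with values as deposited (-0.13, 0.094) and at an adjusted p under 0.01. Apart from effects of scaling and of fewer genes, the cause was not tested.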

Other observations

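Among 4825 other genes with a mean of at least 5 RPKM, those whose centred log2 values over the 4 libraries lay closest to Vgll2 were H2-Aa, Mdh1 and Peg13, at Euclidean distances of 0.00563, 0.0120 and 0.0137. H2-Aa, a chain of an MHC class II molecule, was 6.72 and 6.54 RPKM in Het and 11.0 and 11.2 RPKM in Nf1-KO. Mdh1, the cytosolic malate dehydrogenase, was 275 and 270 RPKM in Het and 435 and 437 RPKM in Nf1-KO. Closest to Sox6 were Ehbp1l1, Usp9x and Qser1, at distances of 0.00595, 0.0128 and 0.0158. Usp9x, a deubiquitinase, was 18.6 and 19.0 RPKM in Het and 14.3 and 14.1 RPKM in Nf1-KO. With 4 libraries such likeness is a description of size and direction only.

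Satellite cell markers, of the muscle stem cells in which Six4 and Eya1 are also known, included Pax7 and Cdh15, neither of which passed. Pax7 was 0.52 and 0.54 RPKM in Het and 0.68 and 0.79 RPKM in Nf1-KO (log2 fold change 0.14, limma adjusted p 0.093). Cdh15 was 6.43 and 6.16 RPKM in Het and 6.66 and 6.55 RPKM in Nf1-KO (log2 fold change -0.02, limma adjusted p 0.7). Of 6 markers, 1 of the 4 tested was called higher in Nf1-KO, beside 24.9% of all names tested. It was Chodl (log2 fold change 0.18), whose limma adjusted p rounded to 0.05. Myf5 and Calcr were below the filter and went opposite ways. Myf5 was 0.21 and 0.22 RPKM in Het and 0.57 and 0.42 RPKM in Nf1-KO. Calcr was 0.06 and 0.15 RPKM in Het and 0.04 and 0.05 RPKM in Nf1-KO. The summed level of the 6 markers was 13.8 to 14.3 RPKM in Het and 15.9 to 16.1 RPKM in Nf1-KO. The part of satellite cells in the values of Six4 and Eya1 was not tested.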
